A study of Mus musculus with 6 samples.

Results

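Accessible chromatin was examined inside protein-coding exons that lie away from promoters, in neural stem cell cultures of the adult mouse subependymal zone (SEZ), the germinal layer along the lateral ventricle. ATAC-seq peaks of 6 libraries on chromosomes 1 to 19 were merged wherever they overlapped by 1 bp or more, which gave 116783 regions. A region was kept when its midpoint lay in the coding sequence (CDS) of a GENCODE M21 transcript on GRCm38 and its nearest edge was over 3 kb from every annotated transcript start. This rule, which used no signal value, kept 973 regions in 873 host genes, all of them protein-coding. They are called coding exon regions here.

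The study asked what the Sox2 enhancer Srr2 does in adult neural stem cells. All 6 libraries came from mice of 10 weeks that carried the Srr2 deletion made with CRISPR-Cas9 (Srr2 del/del), and no wild-type library was used here. The 3 PROLIF libraries were made from cells at 2 days in vitro (2 DIV) with mitogens, and the 3 DIFF libraries from cells 1 day after mitogens were replaced by serum (2 + 1 DIV). The sample labels are followed for PROLIF, where the series description gives 3 DIV. Replicates were numbered 1, 2 and 4 in both states. The study profiled both states on the same cultures, but the sources used here do not say that a number marks a culture. Mitogen loss, serum and the extra day changed together and cannot be told apart.

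Most open chromatin away from promoters is found in introns and between genes, where enhancers and insulators lie. Coding exons are bound by the rules of the genetic code and of splicing, and they are richer in G and C than introns, yet some also carry binding sites for transcription factors. ATAC-seq reads where a transposase can insert into DNA, so a peak in an exon marks DNA that was open and does not show transcription or a function of the exon.

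The DNA under the strongest summits is shown for the members on which the results turn, as 201 bases of the GRCm38 plus strand. In the first set, capitals mark bases that are coding in any GENCODE M21 transcript. Mast2 and Ankrd17 had the smallest p-values among coding exon regions that were lower in DIFF, Ckap5 and Zmat3 among those higher, and Prdm2 and Bag1 had the strongest peaks in all 6 libraries.
Mast2 chr4:116322315-116322515: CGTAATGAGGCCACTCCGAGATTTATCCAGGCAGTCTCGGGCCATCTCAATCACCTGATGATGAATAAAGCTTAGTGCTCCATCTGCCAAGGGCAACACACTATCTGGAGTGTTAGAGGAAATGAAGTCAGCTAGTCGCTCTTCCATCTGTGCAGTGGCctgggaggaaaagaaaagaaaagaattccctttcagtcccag
Ankrd17 chr5:90283411-90283611: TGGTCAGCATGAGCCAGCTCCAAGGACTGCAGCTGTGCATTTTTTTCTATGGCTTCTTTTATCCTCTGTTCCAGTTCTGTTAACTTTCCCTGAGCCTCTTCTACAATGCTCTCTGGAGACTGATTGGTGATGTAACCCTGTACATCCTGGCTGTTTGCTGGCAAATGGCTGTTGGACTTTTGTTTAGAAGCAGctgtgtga
Ckap5 chr2:91580968-91581168: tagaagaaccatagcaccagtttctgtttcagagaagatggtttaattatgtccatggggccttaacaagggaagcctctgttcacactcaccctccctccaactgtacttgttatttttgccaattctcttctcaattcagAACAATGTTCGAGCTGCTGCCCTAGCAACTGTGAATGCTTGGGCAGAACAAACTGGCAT
Zmat3 chr3:32343464-32343664: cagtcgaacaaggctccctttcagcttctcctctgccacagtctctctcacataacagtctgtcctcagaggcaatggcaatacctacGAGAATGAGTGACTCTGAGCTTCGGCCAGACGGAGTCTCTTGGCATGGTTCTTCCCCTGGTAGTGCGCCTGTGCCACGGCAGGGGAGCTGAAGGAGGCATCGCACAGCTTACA
Prdm2 chr4:143162104-143162304: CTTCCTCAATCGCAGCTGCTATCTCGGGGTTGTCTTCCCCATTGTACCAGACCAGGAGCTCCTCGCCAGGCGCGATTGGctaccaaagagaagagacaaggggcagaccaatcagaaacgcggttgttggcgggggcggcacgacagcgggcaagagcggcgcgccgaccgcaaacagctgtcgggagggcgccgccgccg
Bag1 chr4:40936512-40936712: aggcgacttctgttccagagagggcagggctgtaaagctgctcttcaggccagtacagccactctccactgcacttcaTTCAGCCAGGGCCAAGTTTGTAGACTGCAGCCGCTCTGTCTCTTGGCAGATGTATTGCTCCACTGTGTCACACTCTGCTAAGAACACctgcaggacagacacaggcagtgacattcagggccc

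In the second set, capitals mark a motif. A pair of regions with a peak in every PROLIF and no DIFF library that held the AP-1 motif TGACTCA is given first.
Gpc5 chr14:115417132-115417332: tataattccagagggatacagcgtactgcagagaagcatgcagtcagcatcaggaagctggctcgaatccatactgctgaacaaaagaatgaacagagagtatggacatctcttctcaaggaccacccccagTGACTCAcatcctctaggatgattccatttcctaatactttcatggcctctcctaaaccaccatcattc
Enpp3 chr10:24826216-24826416: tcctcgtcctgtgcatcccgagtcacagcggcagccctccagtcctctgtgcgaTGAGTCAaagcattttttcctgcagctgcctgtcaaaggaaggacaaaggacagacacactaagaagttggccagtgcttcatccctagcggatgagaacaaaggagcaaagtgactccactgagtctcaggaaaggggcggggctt
Of the regions with a peak in every DIFF and no PROLIF library, a pair that held the nuclear factor I (NFI) motif TTGGCA follows, with that motif in capitals on either strand. TTGGCA is only part of the full NFI site and is called the NFI motif here.
Ptprd chr4:75950689-75950889: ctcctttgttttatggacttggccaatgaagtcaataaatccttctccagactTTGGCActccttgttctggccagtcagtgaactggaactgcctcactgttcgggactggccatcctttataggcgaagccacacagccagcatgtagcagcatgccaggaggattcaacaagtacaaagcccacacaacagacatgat
Tnrc6b chr15:80876291-80876491: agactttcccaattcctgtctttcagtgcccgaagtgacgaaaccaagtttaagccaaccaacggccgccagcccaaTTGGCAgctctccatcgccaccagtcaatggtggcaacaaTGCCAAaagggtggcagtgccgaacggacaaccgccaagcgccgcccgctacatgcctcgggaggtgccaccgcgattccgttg
The last pair holds the CTCF motif and had the strongest such peaks among regions open in all 6 libraries.
Tecpr2 chr12:110936305-110936505: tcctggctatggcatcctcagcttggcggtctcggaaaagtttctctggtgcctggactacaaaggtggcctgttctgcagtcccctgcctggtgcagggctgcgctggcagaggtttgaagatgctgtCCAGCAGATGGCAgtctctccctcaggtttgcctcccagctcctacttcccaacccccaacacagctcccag
Mroh6 chr15:75884226-75884426: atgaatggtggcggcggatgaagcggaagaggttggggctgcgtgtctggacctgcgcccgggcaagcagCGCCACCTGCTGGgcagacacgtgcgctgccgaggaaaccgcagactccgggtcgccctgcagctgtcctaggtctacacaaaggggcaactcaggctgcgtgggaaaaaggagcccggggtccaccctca

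The lists held 58188 to 80279 PROLIF and 68845 to 85593 DIFF peaks on chromosomes 1 to 19, read depth is unknown, and the weakest 1% of peaks lay below a fold enrichment of 2.20 in DIFF replicate 4 and of 2.45 to 2.68 in the others. A promoter peak in every library was found for 8 of 8 neural stem and progenitor markers, 2 of 6 microglial markers and 2 of 6 endothelial markers. The microglial markers Aif1 and Tmem119 had one in 5 libraries and the endothelial marker Pecam1 in 3. Only 2 microglial and 3 endothelial markers had none in any library. Both replicate 1 libraries shared peaks on chromosome 10 that the other 4 lacked: 206 of the 866 regions found in these 2 libraries alone lay there, but only 1 of the 13 coding exon regions with that pattern.

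Occupancy was described first. Of the 973 coding exon regions, 270 (27.7%) had a peak in all 6 libraries, 312 (32.1%) in a single library and 391 in 2 to 5. Intronic regions over 3 kb from a start had 25.6% in all 6 libraries and 32.5% in a single library, and intergenic regions 25.1% and 35.3%. Among regions within 3 kb of a start, 52.4% had a peak in all 6, and among the 3041 of these whose midpoint lay in CDS it was 63.9%. The shares of coding exon regions were thus within a few percentage points of those of other regions away from starts. Peaks found in a single library were mostly weak, with a median percentile of 11.7, where the percentile ranks a peak by its −log10 p among all peaks of its own list. The 2 longest lists gave the most of them, 94 from DIFF replicate 4 and 80 from PROLIF replicate 1, against 31 to 37 from each other library.

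**Figure D1:**
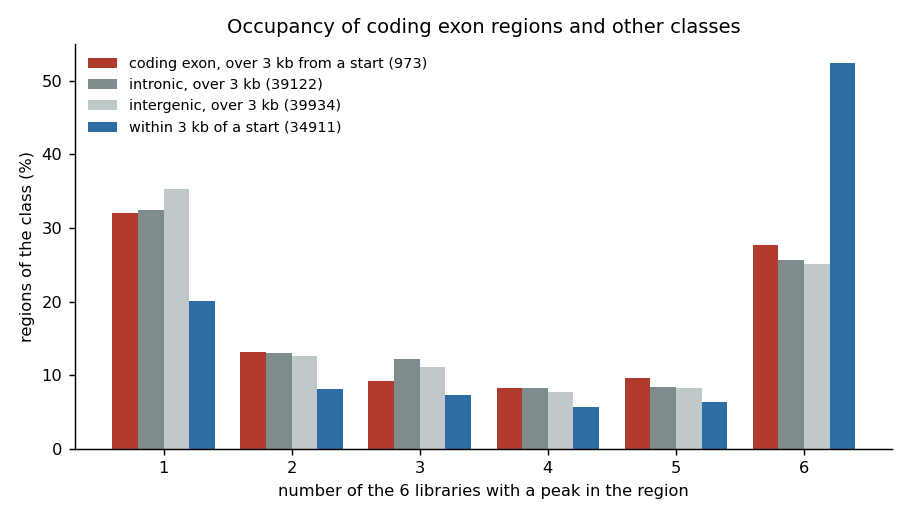
The share of regions in each class (y axis, %) is plotted against the number of the 6 libraries with a peak (x axis). Bars for the 973 coding exon regions run close to those for intronic and intergenic regions, and only regions within 3 kb of a start have over 50% (52.4%) in all 6 libraries.

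Coding sequence over 3 kb from a start spans 17.4 Mb, or 0.837% of all autosomal sequence at that distance, and held 1.19% of the regions there. This is 55.9 regions per Mb, against 50.1 in other exonic sequence, 46.6 in introns and 33.7 between genes. Lengths were taken from whole chromosomes with assembly gaps included, and no class was corrected for sequence where reads cannot be placed. The regions were 68 to 1828 bp wide with a median of 285 bp, and those in all 6 libraries had a median of 607 bp against 128 bp for those in a single library. A median of 69.5% of a region was coding, 314 regions lay wholly within CDS, and 369 covered their host exon completely. The summit of the strongest peak lay in the host exon in 762 regions (78.3%), upstream of it in 93 and downstream in 118.

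Long exons and last exons held more regions per base. In the longest-CDS transcripts of 13932 genes, the density of regions was 38.1 per Mb in coding exons under 100 bp, 49.6 from 100 bp to under 200 bp, 64.0 from 200 bp to under 500 bp, 71.0 from 500 bp to under 1000 bp and 65.2 at 1000 bp or more. At least 1 region was found in 0.270% of the shortest exons and in 9.76% of the longest. By place, internal coding exons had 48.5 regions per Mb, last coding exons 82.5, first coding exons 37.7 and genes with a single coding exon 73.5. First coding exons this far from a start are few, and only 18 regions lay in them. Length and place were not separated, and the median last coding exon had 156 bp against 125 bp for internal ones. The densities are given without a test, since exons of a gene share a chromosome neighbourhood and a region wider than its exon is counted by its midpoint.

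**Figure D2:**
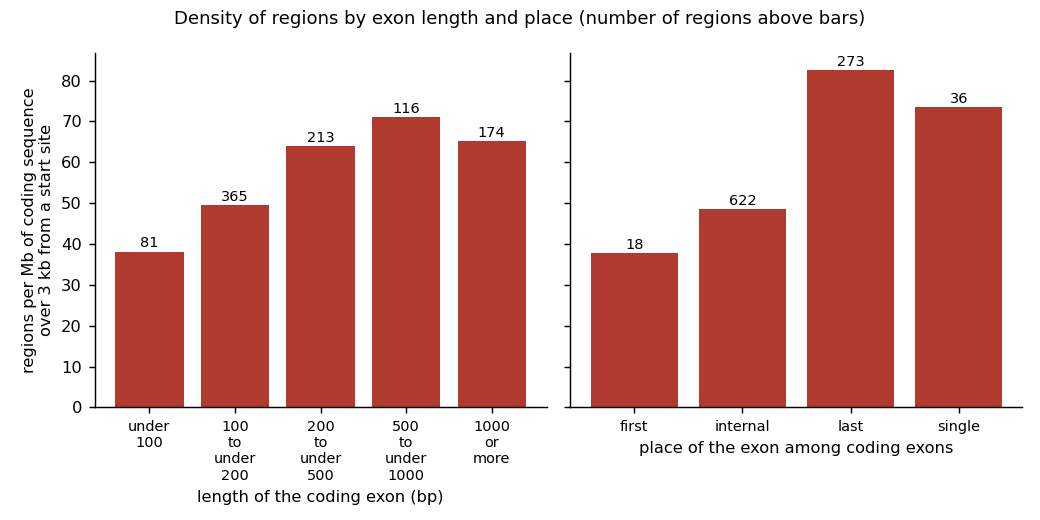
Bars give regions per Mb of coding sequence over 3 kb from a start site (y axis) by exon length in bp (left) and by place of the coding exon (right), with the number of regions above each bar. Density rises from 38.1 per Mb in exons under 100 bp to 71.0 from 500 bp to under 1000 bp, and last coding exons stand at 82.5 against 48.5 for internal ones.

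Coding exon peaks were set against intronic peaks of the same library. Mean GC content within 100 bp of the summit was 55.1, 54.9 and 55.3% in PROLIF replicates 1, 2 and 4 and 55.2, 55 and 54.3% in DIFF replicates 1, 2 and 4. Intronic peaks ranged from 49.8 to 50.7%. The difference was 4.82 percentage points ± 0.240 (SD, n = 6 libraries), higher in 6 of 6 libraries, and passed the two-sided exact sign-flip permutation test (p = 0.031, the smallest 6 libraries allow). The libraries share many of their regions, so this p speaks of the spread between libraries. Peaks in coding exons were thus more GC-rich than peaks in introns in every library. Coding exons are richer in G and C than introns with or without a peak, and coding sequence without peaks was not measured. The difference therefore cannot be read as a trait of open exons.

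Width did not separate the classes by the same test, and for strength the test could not decide. The median percentile of coding exon peaks was 45.8, 42.8 and 43.4 in PROLIF and 41.4, 44.1 and 44.8 in DIFF, a mean of 1.33 above introns (SD 1.36, n = 6, exact permutation p = 0.125). The difference from introns was above 0 in 4 libraries and exactly 0 in PROLIF replicate 4 and DIFF replicate 1. With these ties the p could not fall below 0.125. Median peak width differed from introns by −1.83 bp on average, from −16.5 to 20.5 bp (exact permutation p = 0.65625). Both values depend on what is called a coding exon region. When at least 50% of a region's bases had to be coding, its peaks ranked 9.09 percentile units below intronic ones and were 57.7 bp narrower, each with an exact permutation p of 0.031. That rule favours narrow regions, since the median coding exon over 3 kb from a start has 127 bp, and intronic regions had no such limit. These 2 differences thus cannot be read as traits of coding exons. Without regions that have a near-identical copy elsewhere, coding exon peaks ranked 2.79 units above intronic ones, also with p = 0.031 by the exact permutation test.

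**Figure D3:**
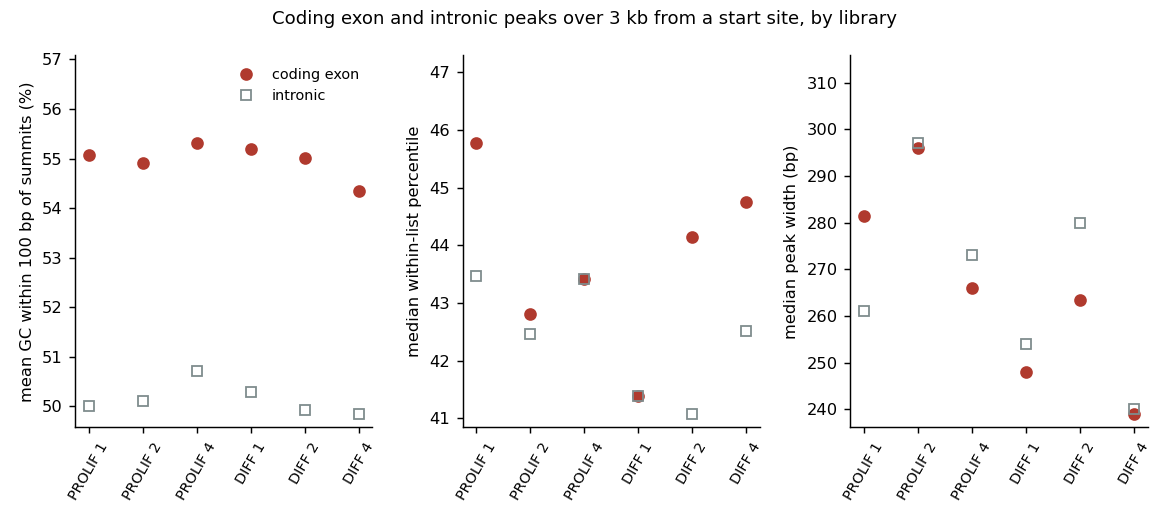
Points give the value in each of the 6 libraries (x axis) for coding exon peaks (filled circles) and intronic peaks (open squares): mean GC in %, median within-list percentile and median width in bp. The GC points of coding exons lie between 54.3 and 55.3%, all above the intronic range of 49.8 to 50.7%, while percentile and width overlap.

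Summit windows rich in CpG were more frequent in coding exon regions than in intronic ones, but coding sequence without peaks was not measured. The difference from introns therefore cannot be read as a trait of open exons. A summit window with at least 55% GC and a CpG observed over expected ratio of at least 0.6 was found in 124 of the 973 regions (12.7%), in 1.12% of intronic, 2.60% of intergenic and 33.8% of promoter-proximal regions. Among coding exon regions in all 6 libraries it was 51 of 270 (18.9%), and among those in a single library 24 of 312 (7.69%). The rule used GENCODE starts, and RefSeq lists others: 70 of 973 lay within 3 kb of a RefSeq transcript start and 8 held one, among them the regions in Prdm2, Ethe1, Hist1h2be, Usp43 and Slc1a6 that were open in all 6 libraries. Intronic regions were within 3 kb of a RefSeq start in 5.43% of cases, against 7.19% here.

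Host genes mostly had an open promoter, but so did most genes with CDS over 3 kb from a start. A peak within 3 kb of their own start sites was present in all 6 libraries for 654 of the 873 hosts (74.9%), against 72.6% of the 13932 protein-coding genes with CDS over 3 kb from a start, and 118 hosts (13.5%) had none against 17.8%. Region density was 55.1 per Mb in genes with a promoter peak in all 6 libraries, 67.6 per Mb in genes with such a peak in 1 to 5 libraries and 49.2 per Mb in genes without any, so density did not follow the number of libraries with a promoter peak. Regions in hosts without a promoter peak were in all 6 libraries in 31 of 134 cases (23.1%) and in a single library in 55 (41.0%), against 28.7% and 29.8% in hosts with a promoter peak in all 6. Open coding exons were thus also found in genes without a promoter peak.

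Single regions were the rule, with 795 genes holding 1, 64 holding 2, 11 holding 3 and 3 holding more. Syne1, which encodes the giant nuclear envelope protein nesprin-1, had 7 regions across a coding sequence of 26.4 kb, 2 of them in all 6 libraries. Pkhd1, the fibrocystin gene of polycystic kidney disease, had 6, and the regions in its exons 61 and 67 were strong in all 6 libraries, with mean percentiles of 80.6 and 89.7, although only 2 libraries had a promoter peak. Eppk1, the epiplakin gene, had 4 regions in a single exon of 10374 bp, and each has a near-identical copy, so its reads cannot be placed with certainty. The next by shortest CDS were Gm13212, Dspp, Iqsec3, Thsd7a and Gpr179 with 3 regions each. The 3 regions of Gm13212, a gene of the zinc finger cluster on chromosome 4, each have 4 to 7 near-identical copies. Those of Dspp, which encodes a dentin protein, lay in 1 exon and were each found in DIFF replicate 4 alone. Thsd7a had 1 region in all 6 libraries, which rose in DIFF by a log2 of 0.49 in the test given below.

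A near-identical copy elsewhere in the genome (at least 95% identity over 90% of the summit window) was found for 92 regions (9.46%). Of these, 53 were in a single library and 8 in all 6. The largest numbers were 66 and 49 copies, at the exons of the epidermal filaggrin-family gene Flg2. Such windows can collect reads of their copies, and their values are uncertain.

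The strongest members that were open in all 6 libraries are described next, chosen by the highest lowest percentile. The region in exon 6 of Prdm2, which encodes a histone methyltransferase with zinc fingers, lay at chr4:143161641-143162694, 3909 bp from the nearest GENCODE start. Its percentile was 99.5, 99.2 and 98.6 in PROLIF and 99, 98.9 and 99 in DIFF, and the states overlapped. Of this region 12% is coding, and its summit lies outside the coding exon. Its summit window has 64.7% GC, and the region holds a RefSeq transcript start. The region over the last exon of Bag1, a cochaperone of Hsp70, reached 99.4, 99.6 and 99.3 in PROLIF and 98.1, 99 and 98.9 in DIFF (chr4:40936072-40937116), and 8.33% of it is coding. In Smarcc1, a core subunit of the BAF chromatin remodelling complex, the region over exon 24 had 99.2, 98.7 and 97.9 in PROLIF and 96.9, 97.5 and 97.4 in DIFF (chr9:110205599-110206611). Every DIFF value of Smarcc1 lay below every PROLIF value, although both were near the top of their lists. Of the Smarcc1 region 15.3% is coding, and its summit lies outside the coding exon.

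Sptbn4, the spectrin of axon initial segments, had percentiles between 95.6 and 99.2 over exon 33, and Focad, the focadhesin gene, between 93.8 and 99 over exon 42. Jmjd1c encodes a Jumonji domain protein related to histone demethylases. Its region was wholly coding, within the 2183 bp of exon 10 (chr10:67225801-67226873), with percentiles of 93.4, 92.2 and 93.4 in PROLIF and 92.5, 92.4 and 97.2 in DIFF. The zinc finger gene Zfp697 had a region in its last exon, 95.4% coding and 73.6% GC at the summit, with percentiles of 90.5 to 95.7. The uncharacterised gene 4930564D02Rik ranged from 90.7 to 95.6. None of these regions but Smarcc1 passed the test between states given below.

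Occupancy was then compared between PROLIF and DIFF. A peak was present in 621, 513 and 434 coding exon regions in PROLIF replicates 1, 2 and 4 and in 518, 514 and 644 in DIFF, which overlap. The means were 523 ± 93.9 and 559 ± 73.9 (SD, n = 3 libraries each, two-sided exact permutation p = 0.5, where 0.1 is the smallest that 3 against 3 can give). The difference of 36.0 turned to −26.3 when all lists were cut to the length of the shortest. As a share of all peaks, coding exon regions took 0.790, 0.810 and 0.766% in PROLIF and 0.766, 0.758 and 0.775% in DIFF (difference −0.0225 percentage points, exact permutation p = 0.2). The median percentile differed by −0.572 (exact permutation p = 0.7). Peaks in coding exon regions had median widths of 281.5, 296 and 266 bp in PROLIF and 248, 263.5 and 239 bp in DIFF, which did not overlap (difference −31.0 bp, exact permutation p = 0.1, the smallest possible). Intronic peaks had median widths of 261, 297 and 273 bp in PROLIF and 254, 280 and 240 bp in DIFF. They too were narrower in DIFF at each replicate number, although their states overlapped, so narrower peaks were not particular to coding exons. The numbers in the peak names fall in a lower set (PROLIF 1, PROLIF 4 and DIFF 1) and a higher set, and within these the occupancy difference was −9.50 and 66.0 regions, the share difference −0.0121 and −0.0436, and the percentile difference −3.21 and 1.64.

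Measured against introns, the libraries did separate by state. For every 1000 intronic regions with a peak there were 25.7, 27.7 and 27.6 coding exon regions with a peak in PROLIF and 25.1, 24.3 and 24.3 in DIFF. The groups did not overlap, the difference was −2.46 (exact permutation p = 0.1, the smallest possible), and it was −1.55 and −3.44 within the sets of peak name numbers. This ratio was chosen after the values were seen. It cannot pass 0.05 in this design.

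State-restricted members were few. There were 15 coding exon regions (1.54%) with a peak in every PROLIF and no DIFF library, where 1.77% of all 116783 regions had that pattern. There were 25 (2.57%) with a peak in every DIFF and no PROLIF library, where 3.52% of all regions had it. Intronic regions had 2.04% and 4.67%. The order of the counts turned with list length: lists cut to the length of the shortest gave 28 PROLIF-only and 21 DIFF-only regions, and the strongest 20000 peaks of each list gave 14 and 11. A region without a peak may still have signal below the calling threshold, and fewer open cells and less opening per cell cannot be told apart in bulk libraries.

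The 8 strongest PROLIF-only regions lay in genes of varied roles. Adcy10, the soluble adenylyl cyclase, had percentiles of 66.8, 56.1 and 55.1 in PROLIF replicates 1, 2 and 4 (chr1:165556616-165557327, exon 23 of 34), and Adamts3, a procollagen protease, 76.6, 51.8 and 55.1 (chr5:89861044-89861590, exon 3). Gpc5, a glypican of the cell surface, reached 81.4, 51.8 and 73.6 over the last exon of a short transcript (chr14:115417118-115417377). Others were in D6Ertd527e, the axonemal dynein gene Dnah7c, the serpin gene Serpinb7 and Rundc1, with percentiles of 20.3 to 59.9. The Dnah7c window has 2 near-identical copies and is uncertain. Percentiles over the 8 regions ran from 20.3 to 81.4.

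Among DIFF-only regions the strongest was in the second exon of Ppp1r15b, a regulatory subunit of the phosphatase that reverses the stress arrest of translation, with percentiles of 80.5, 74.5 and 70.5 in DIFF replicates 1, 2 and 4 (chr1:133136572-133137164). Ptprd, a receptor tyrosine phosphatase of synapses, had 47.5, 51.6 and 60.5 over exon 34 (chr4:75950658-75950890). Tnrc6b, an Argonaute partner in microRNA silencing, had 41.4, 55.7 and 44.8 in a region that is 97.3% coding (chr15:80876308-80876645). Others lay in 9530053A07Rik, whose window has 1 copy, in the Golgi channel gene Gpr89, in Kmt2a, a histone H3 lysine 4 methyltransferase, and in the lipid phosphatase gene Plpp3, with percentiles of 23.8 to 64.3.

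Fold enrichment of the summit over local background was then compared in the 270 coding exon regions with a peak in all 6 libraries, by limma on quantile-normalised log2 values with Benjamini-Hochberg adjustment over all 39088 regions of this kind. Adjusted p was under 0.05 in 56 of the 270: 19 were higher in DIFF (7.04%), where 6.98% of all tested regions were higher, and 37 were lower (13.7%), where 8.95% of all were lower. Intronic regions had 9.35% higher and 13.4% lower, and regions within 3 kb of a start 4.89% and 4.50%, so the coding exon members were close to introns in the lower direction. The median log2 difference, DIFF minus PROLIF, was −0.06 over the members and 0.03 over all regions. On the scale of within-list percentiles the fit called 5 higher and 11 lower, and the median difference was 1.52 percentile units over the members and 2.31 over all regions, so the sign of the members' median turned with the scale. All 56 calls had the same direction in both sets of peak name numbers, and the percentiles of the states did not overlap in 18 of 19 and 32 of 37. The calls were chosen on these same 6 libraries, so these counts describe them and give no separate support.

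The largest fall was in Mast2, a microtubule-associated serine/threonine kinase, over exon 11 of 30 (chr4:116321891-116322859). Its percentile was 94.6, 93.2 and 91.6 in PROLIF and 47.5, 34.3 and 34.6 in DIFF, and its fold enrichment 15.0 ± 2.76 and 4.44 ± 0.765 (SD, n = 3). The log2 difference was −1.70 ± 0.15 (SE, limma adjusted p = 3.69e-06). Ankrd17, an ankyrin repeat protein, ranked 98.6, 98.2 and 97.6 in PROLIF and 75.4, 68.3 and 78.8 in DIFF over exon 15 (chr5:90282887-90284025), a log2 difference of −1.0 ± 0.10 (SE, limma adjusted p = 5.04e-06). Neither region overlapped between states. Of the Mast2 region 21.7% is coding, and of the Ankrd17 region 62.95%.

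Tcf4, which encodes a basic helix-loop-helix E protein that pairs with proneural factors, fell over exon 11 from 87.0, 86.1 and 85.9 to 36.2, 32.6 and 66.4 (log2 −1.30 ± 0.17 SE, limma adjusted p = 4.9e-05). Of that region 14.1% is coding, and its summit lies outside the coding exon. Asap1, an activator of Arf GTPases, fell over exon 5 from 77.0, 62.2 and 62.6 to 11.2, 4.93 and 10.7 (log2 −1.29 ± 0.18 SE). Of the Asap1 region 30.6% is coding, and its summit also lies outside the coding exon. Cacna1c, the pore subunit of the L-type calcium channel Cav1.2, fell over exon 2 from 95.9, 95 and 93.3 to 80.5, 73.1 and 76.0 (log2 −0.64 ± 0.11 SE). The others of the 8 lowest p-values were the last exon of Lct, the intestinal lactase gene, with a log2 difference of −1.14, Gbp7, a guanylate-binding protein, with −1.37, and Gm1110 with −0.89. Neither Lct nor Gm1110 had a promoter peak in all libraries, with 2 and 0 libraries respectively. Of the Lct region 47.4% is coding, and its summit lies outside the coding exon.

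Among the 19 that rose, Ckap5 came first, with a region that is 29.1% coding and a summit outside the coding exon. This microtubule polymerase had percentiles of 65.7, 19.9 and 31.0 in PROLIF and 89.8, 85.6 and 88.6 in DIFF over exon 23 of 43 (chr2:91580956-91581399), with fold enrichments of 5.60 ± 2.59 and 14.5 ± 0.749 (SD, n = 3) and a log2 difference of 1.53 ± 0.18 (SE, limma adjusted p = 2.41e-05). Ckap5 was the only member that rose by more than 1 on the log2 scale, against 11 that fell by more than 1. The matching counts over all called regions were not made, so this is not shown to be particular to coding exons. Zmat3, an RNA-binding zinc finger protein under p53, ranked 66.2, 55.5 and 64.5 in PROLIF and 92.6, 90.4 and 93.8 in DIFF (log2 0.77 ± 0.13 SE, exon 4, chr3:32343257-32343884). Naa40, which acetylates the amino termini of histones, ranked 75.9, 65.9 and 71.1 and then 85.5, 87.4 and 89.8. Sgo1, the shugoshin that guards centromeric cohesion, rose over exon 7 by a log2 of 0.79, Slc12a8, a transporter, by 0.90, Stra6, a receptor for retinol-binding protein, by 0.81, Usp37, a deubiquitinase, by 0.75, and Dclk2, a doublecortin-like kinase, by 0.40. Of the Slc12a8, Stra6 and Dclk2 regions 8.59, 23.0 and 23.6% is coding, and their summits lie outside the coding exons.

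**Figure D4:**
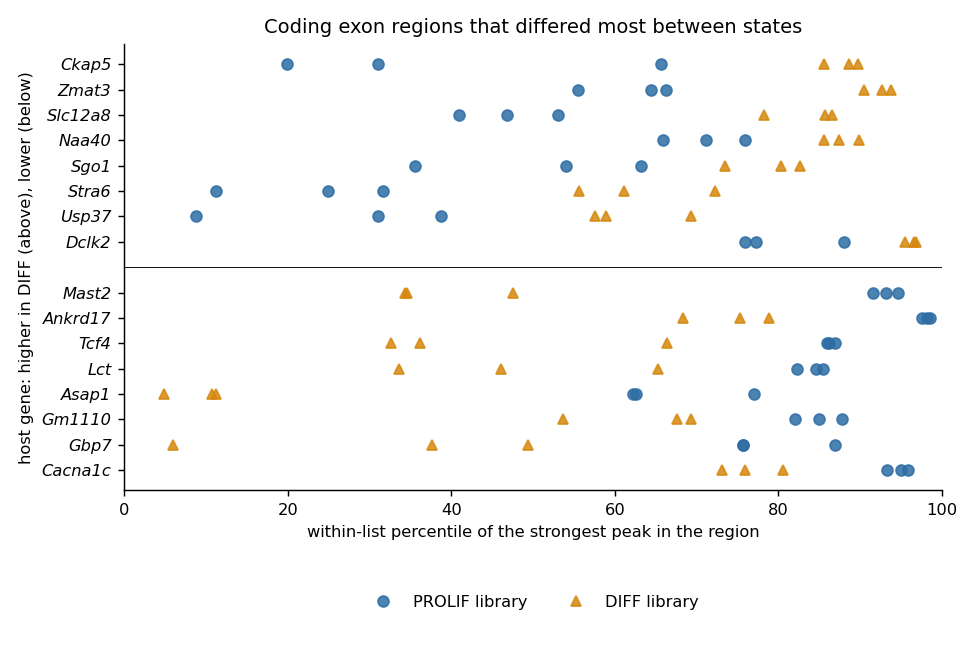
The within-list percentile of each host gene's region (x axis) is plotted in the 3 PROLIF (circles) and 3 DIFF (triangles) libraries for the 8 regions with the lowest p in each direction. The states do not overlap for any of the 16 genes, and Mast2 shows DIFF values of 34.3 to 47.5 against PROLIF values of 91.6 to 94.6.

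In some hosts, several regions moved alike. In Ash1l, a histone H3 lysine 36 methyltransferase, exon 2 of 4558 bp held a DIFF-only region and another that rose in DIFF by a log2 of 0.59. In Gpc5 a PROLIF-only region lay in a different exon from one that fell in DIFF, with percentiles of 72.1, 73.6 and 78.8 in PROLIF and 29.3, 49.3 and 42.5 in DIFF. In Lct the directions differed. While the region over exon 17 fell, the region over exon 7 ranked 47.1 and 51.8 in PROLIF replicates 1 and 2, lacked a peak in PROLIF replicate 4, and ranked from 85.2 to 87.6 in DIFF. These hosts were chosen after their values were seen.

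Motifs were sought within 100 bp of the summit of each region's strongest peak, on both strands. A match here is a description of letters. Against intronic regions, coding exon regions held the SP/KLF motif GGGCGG in 9.46% against 4.60%, and the ETS motif CCGGAAG in 3.08% against 1.14%. They held the AP-1 motif in 3.8% against 6.38%. Over all 116783 regions the shares were 12.6, 2.84 and 5.78%. GGGCGG and CCGGAAG each contain a CpG. Base composition differed between coding exon and intronic windows and was not accounted for, and coding sequence without peaks was not searched. The SOX motif ACAANG (40.1 against 42.6%) and the NFI motif (22.8 against 21%) stood at much the same level in both. The CRE TGACGTCA, the TEAD motif ACATTCC, the NRF1 motif GCGCATGCG and the YY1 motif AAGATGGC were in 0.514, 3.6, 0.308 and 1.13% of coding exon regions.

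The CTCF motif was found in 43 coding exon regions (4.42%), against 3.65% of intronic and 4.01% of all regions. Of these, 20 (46.5%) were in all 6 libraries and 3 in a single library, none was restricted to a state, and 2 passed the limma test. Intronic regions with the motif were in all 6 libraries in 42.3% of cases. The match lay within 50 bp of the summit in 36 of the 43. In Tecpr2, a tectonin repeat protein gene of autophagy, the region over exon 10 ranked 89.1, 85.8 and 87.8 in PROLIF and 85.1, 90.7 and 92.5 in DIFF, and the states overlapped.

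Motif shares were also counted, with no test, in the members that differed between states. In the 37 that were lower in DIFF, the SOX motif was found in 26 (70.3%), the E-box CAGATG in 15 (40.5%) and the E-box CAGCTG in 13 (35.1%). In the 19 that were higher, the same 3 motifs were in 7, 2 and 4, and in the 214 that were not called in 38.8, 18.7 and 22.9%. Over all regions that were lower in DIFF the shares were 47.6, 26.0 and 38.4%, and over all that were higher 39.2, 12.7 and 17.6%. Intronic regions had the SOX motif in 48.2% of those lower, 45.1% of those higher and 45.3% of those tested, and thus at much the same level, while CAGATG was in 28.2, 14.6 and 19.9% of them. The AP-1 motif was in 4 of the 37 and none of the 19, and over all lower and higher regions in 16.4 and 1.83%. The NFI motif was in 10 of the 37 and 6 of the 19, with 21.2 and 29.6% over all lower and higher regions.

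Among members restricted to a state the counts were small. Of the 15 PROLIF-only coding exon regions 3 held AP-1, those of Gpc5 and Enpp3 printed above among them, and 0 of the 25 DIFF-only did, where PROLIF-only and DIFF-only intronic regions had 28.7 and 2.13%. The SOX motif was held by 6 of the 15 PROLIF-only members and by 12 of the 25 DIFF-only members, the opposite order to that in the members lower and higher in DIFF. The NFI motif was in 6 of 15 and 12 of 25, where intronic ones had 18.9 and 32.6%. The NFI letters can overlap GTTGCCA, which is part of the RFX site. GTTGCCA was in 4.83% of coding exon regions.

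**Figure D5:**
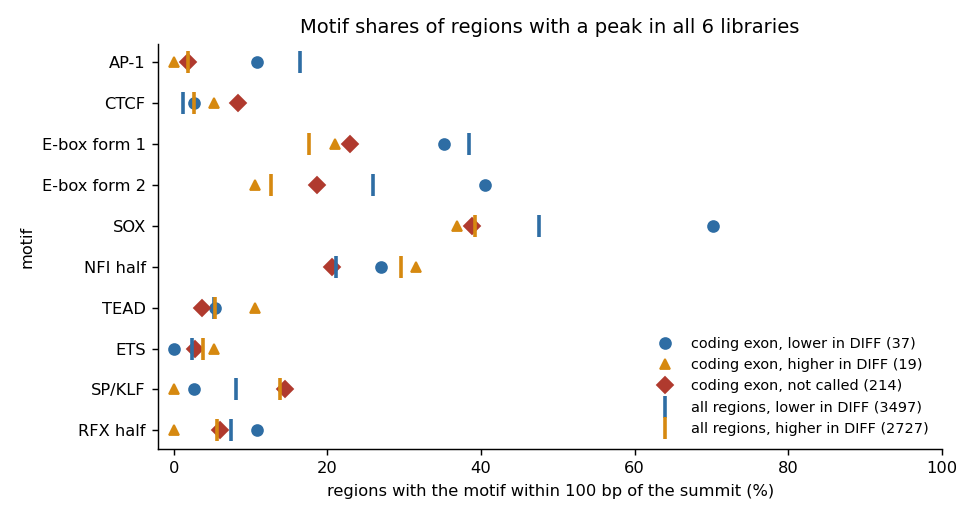
The percentage of regions with each motif within 100 bp of the summit (x axis) is plotted for coding exon regions lower in DIFF, higher in DIFF or not called, and as vertical ticks for all regions lower or higher (E-box form 1 is CAGCTG and form 2 CAGATG). The SOX motif stands at 70.3% in the 37 lower members against 38.8% in those not called, with 47.6% in all lower regions and 48.2% in lower intronic regions, which are not drawn.

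Host genes were also read in groups that serve the tissue. Of 391 C2H2 zinc finger genes with coding sequence over 3 kb from a start, 49 (12.5%) held 55 regions, against 6.27% of all genes, at 86.8 regions per Mb against 55.5. Only 8 of these 55 were in all 6 libraries, 24 were in a single library and 19 have near-identical copies. The density includes the regions with copies, whose reads cannot be placed with certainty, and was not computed without them. The strongest lay in Prdm2, Zfp697, Zfp771 and Zfp941, with mean percentiles of 99, 92.7, 87.1 and 68.3, and none of these 4 passed the limma test. In the group, 1 was higher and 1 lower in DIFF.

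Synaptic and neuronal genes had 23 regions in 19 of 80 genes (80.9 per Mb), 10 of them in all 6 libraries. The strongest were in Tenm3, a teneurin of synapse targeting (mean percentile 86.5), Rims1, an active zone protein (85.1), Adgrb3, an adhesion receptor for complement-like ligands (84.2), and Lrp8, the reelin receptor ApoER2 (75.7). None of the 10 passed the limma test, and 2 regions of the group, including a weaker region of Tenm3, were DIFF-only. Large cytoskeletal and scaffold genes had 29 regions in 14 of 58 genes, 9 of them in all 6 libraries, with regions in Sptbn4, Syne1 (72.0) and the dystonin gene Dst (70.4), and none passed the test.

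Potassium and calcium channel genes had 12 regions in 12 of 96 genes (86.2 per Mb). Cacna1c was the only call of the 3 tested, while Kcnk12 and Kcnh8 had log2 differences of −0.28 and 0.23. Chromatin regulators had 14 regions in 12 of 75 genes, 4 in all 6 libraries, with Smarcc1 lower in DIFF, the region of Kmt2a described above DIFF-only, and Kdm3b (89.0), Hdac7 (75.6) and Chd9 (65.5) not called. Ash1l, with its DIFF-only region and its region that rose, was not on this list. Neural transcription factors had 5 regions in 4 of 55 genes. Tcf4 fell, Sox5 had a log2 difference of −0.38 without passing, and Zfhx4 and St18 had peaks in 1 to 3 libraries.

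Neural stem cell and astrocyte genes had 4 regions in 4 of 43 genes, in Notch3 (55.1, all 6 libraries), Erbb4 (45.9), Lrig1 (29.3) and Megf10 (21.8), at 35.5 per Mb. Only Notch3 could be tested between states, with a log2 difference of 0.20 that did not pass. Axon guidance genes had 7 regions in 6 of 58 genes, with Sema4a higher in DIFF by a log2 of 0.54 and Sema4b and Sema6a not called, while Sema3e had peaks in 3 libraries. Collagen and laminin genes had 11 in 10 of 54, with Col17a1 higher by 0.66, Lamb1 not called, and Lama1 and Lama5 open in 5 and 2 libraries. Cadherins outside the protocadherin clusters had 3 in 3 of 42 genes, of which only that in Fat2 was in all 6 libraries. The olfactory and vomeronasal receptors had 7 regions in 7 of 188 genes, none in all 6 libraries and 6 with near-identical copies. Of the genes whose expression the study named, only Ercc5 was a host, with 2 regions found in DIFF replicate 4 alone. No coding exon region lay in the clustered protocadherins, the Hox genes, the oligodendrocyte and myelin genes or the microglial and endothelial genes, whose coding sequence over 3 kb from a start is 0.0130, 0.00127, 0.0249 and 0.0345 Mb.

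Chromosomes differed in density. Chromosome 1 held 111 coding exon regions, or 83.9 per Mb of longest coding sequences, against 55.5 over all autosomes and 34.0 on chromosome 9. Chromosome 1 held 11.4% of all regions, close to its share of coding exon regions. At the limit of the rule, the nearest regions inside were in Dbx1, Gm49333 and Supt20 at 3003, 3006 and 3033 bp from a start, with peaks in 3, 5 and 5 libraries. The nearest outside were in G3bp1, Zc3hc1 and Sipa1l3 at 2987, 2978 and 2976 bp, with peaks in 6, 1 and 3.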

How the data were processed

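Deposited ATAC-seq peak lists, 1 per library, were used for 3 PROLIF and 3 DIFF libraries. From the study's methods, the authors removed Nextera adapters (cutadapt) and poor bases (Trimmomatic), aligned reads to GRCm38 (Bowtie2), flagged duplicates (Picard) and ran MACS2 on each library for narrow peaks at a false discovery rate of 0.05. Tool versions, transposase shift and extension are not given in the sources used here. Per the file layout, the deposited columns hold a score, the fold enrichment as a ratio to local background, and −log10 p and −log10 q. Lists hold no reads, so counting precision is unknown.

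Peaks were merged, classed and ranked in Python 3.11.15, and sequences read from GRCm38. Fold enrichment was tested with limma 3.58.1 (R 4.3.3) on quantile-normalised log2 values; the fit was tested on simulated data with known changes. Copies were sought with blastn 2.17.0. Other tests were exact permutations over libraries. P-values measure the spread between these libraries. Named members were the 8 with the highest lowest percentile among those in all 6 libraries and in each state alone, the 8 lowest p-values in each direction, the 8 hosts with most regions, the 3 regions on each side of the 3 kb limit and up to 4 hosts per gene list. Some named members are not reported here. Members, lists and tests were chosen with earlier results of these data known. Alternatives were q of 0.01, shorter lists, a limit of 1 kb, 50% coding bases, each library left out, the replicate block and other scalings for limma.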

Additional observations from a re-analysis of the deposited data

Results flagged for a closer look

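Peaks on the sex chromosomes were outside every comparison. By the same rule, chromosome X held 14 coding exon regions among 2831 merged regions, 4 of them with a peak in all 6 libraries, and chromosome Y held 0 among 105. They are given here as signal in data that the comparisons did not use.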

How the results depend on the processing

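A q of 0.01, run for all results but the limma counts, kept every direction and each count within 1.5 times, and median centring, run for the limma counts alone, gave 21 higher and 38 lower. Leaving out regions within 3 kb of a RefSeq start (chosen, like leaving out near-identical copies, after seeing the data) turned no direction, but the differences from introns became 0.275 percentile units (exact permutation p = 0.75) and −7.08 bp. With the strongest 20000 peaks of each list there were 11 DIFF-only and 53 constant regions, the occupancy difference was −8.33 and the percentile difference from introns −0.0904. With all lists at the length of the shortest, there were 28 PROLIF-only regions and the occupancy difference was −26.3. Over 1 kb from a start there were 24 PROLIF-only regions and the percentile differed between states by 0.486. With at least 50% coding bases there were 7 PROLIF-only and 119 constant regions, limma called 5 higher and 11 lower, the state differences were 0.321 in percentile and 0.00800 in share, and coding exon peaks differed from introns by −9.09 percentile units and −57.7 bp. On the percentile scale limma called 5 higher and 11 lower. Without copies the differences from introns were 2.79 percentile units and 3.25 bp. The cause of these changes was not tested.

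The replicate numbers are shared by both states, but no source used here ties them to a culture. Deviations of percentiles correlated at 0.0551, 0.152 and 0.0122 between same-numbered libraries and at −0.112 to 0.0611 between others, and not every library correlated best with its own number. Under the replicate block, a looser pattern gave 76 regions for PROLIF and 104 for DIFF, limma called 23 higher and 43 lower, and no other call changed. An exact permutation p cannot go below 0.25 with 3 pairs.

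Leaving out each library gave 25 to 53 DIFF-only (53 without PROLIF replicate 1, 48 without DIFF replicate 1, 41 without DIFF replicate 2) and 19 to 42 PROLIF-only regions (42, 24 and 26 without PROLIF replicate 4, PROLIF replicate 2 and DIFF replicate 4). A pattern over fewer libraries is easier to meet. It gave 265 to 307 constant regions, 11 to 17 limma calls higher (11 without DIFF replicate 2) and 28 to 39 lower. The occupancy difference ran from −9.50 to 88.3 and was below 0 when PROLIF replicate 4 (−9.50) or DIFF replicate 4 (−3.83) was dropped. The percentile difference ran from −1.66 to 0.523, positive without DIFF replicate 1, and the share difference from −0.0347 to −0.0123. Against introns, GC differed by 4.82 to 5.00 (exact permutation p = 0.0625, the smallest with 5 libraries), percentile by 1.27 to 1.85 and width by −4.40 to 3.00 bp, positive without DIFF replicate 2 (3.00). Lists without reads limit any statement on weak regions.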
